A study of Mus musculus with 23 samples.

Results

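The genes described here carry, store and release iron, or break down heme, in the adult mouse sciatic nerve (SN). They are 9 genes chosen by symbol: the ferritin chains Fth1 and Ftl1, the iron exporter Slc40a1 (ferroportin), the transferrin receptor Tfrc, the plasma iron carrier transferrin (Trf), the divalent metal transporters Slc11a1 and Slc11a2, the ferroxidase ceruloplasmin (Cp) and the heme-degrading enzyme Hmox1. All 9 were found among the 43068 genes listed for the crush libraries and among the 22880 genes listed for the inducible knockout (iKO) libraries. The rule names them and uses no measured value, although they were chosen with earlier results of these data known.

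RNA sequencing was available for 23 libraries in 7 groups. The crush experiment used C57bl6 wild-type mice, operated on at 2 months of age: crushed SNs 3 days post crush (dpc, n = 4), the contralateral SNs (n = 4), and uncrushed SNs of a surgery control group (n = 3). These were males, and the crushed piece sampled was 7 mm long and began 1 mm distal to the crush site. The iKO experiment compared Dicer1 flox/flox mice (Dicer iKO, n = 3) and Dgcr8 flox/flox mice (Dgcr8 iKO, n = 3) that carried P0-CreERT2, which drives a tamoxifen-inducible Cre recombinase in Schwann cells (SCs), with tamoxifen-treated flox/flox controls lacking it (n = 3 for each gene). Dicer and Dgcr8 are components of the microRNA biogenesis pathway. All iKO animals, controls included, received tamoxifen on 5 consecutive days at 8 to 10 weeks of age, and their SNs were taken 3 months later. The study restricted its analysis of these mutants to animals with affected nerve morphology, so these values describe affected nerves. The contralateral SNs were the uninjured nerves of operated mice, but the labels do not say which contralateral library belongs to which crushed one. The main tests of crushed against contralateral SNs therefore treat the libraries as independent. The library kits named for the experiments differ, and levels are therefore compared only within an experiment.

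Cells take up transferrin-bound iron through the transferrin receptor, keep spare iron inside ferritin shells built from heavy (Fth1) and light (Ftl1) chains, and release it through ferroportin, with ceruloplasmin oxidizing the exported iron so that transferrin can bind it. When iron is scarce, iron regulatory proteins bind a hairpin called the iron-responsive element (IRE) in certain mRNAs. Bound in a 5′ UTR the hairpin blocks translation, and bound in a 3′ UTR it protects the mRNA from decay. In peripheral nerve, SCs need iron for myelin lipid synthesis, and macrophages that clear red cells and debris recycle iron from heme through Hmox1 and export it.

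The IREs are shown because they separate those members whose mRNA level iron can set through a 3′ element from those whose protein it sets through a 5′ element. The spliced transcripts of the 9 genes (GENCODE M21, GRCm38) were searched on the sense strand for an unpaired C, 5 bases, the loop CAGTGN with N other than G, and the pairing bases, with all 5 upper pairs, at least 4 of 6 lower pairs and 1 extra unpaired base on the 3′ side allowed. G-T pairs counted as pairs. Such a hairpin was found in 126 of 21901 protein-coding genes (0.575%). The capitals mark the loop.
Fth1, 5′ UTR, chr19:9982732-9982760, plus strand: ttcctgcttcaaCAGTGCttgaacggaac
Ftl1, 5′ UTR, chr7:45459779-45459807, minus strand: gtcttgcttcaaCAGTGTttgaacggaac
Slc40a1, 5′ UTR, chr1:45925465-45925493, minus strand: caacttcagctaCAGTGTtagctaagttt
Slc11a2, 3′ UTR, chr15:100395152-100395181, minus strand: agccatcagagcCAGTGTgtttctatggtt
Tfrc, 3′ UTR, chr16:32631219-32631247, plus strand: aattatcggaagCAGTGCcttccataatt
Tfrc, 3′ UTR, chr16:32631598-32631626, plus strand: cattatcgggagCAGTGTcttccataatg
Tfrc, 3′ UTR, chr16:32631663-32631691, plus strand: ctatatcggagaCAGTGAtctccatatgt
Tfrc, 3′ UTR, chr16:32631710-32631738, plus strand: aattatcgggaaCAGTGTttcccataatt
Each hairpin lies within 1 exon. The Fth1 and Ftl1 elements share the bases around the loop, and the 4 elements of Tfrc lie in the same 3′ UTR. The Slc11a2 element is present in Slc11a2-205 and absent from Slc11a2-201. A further match lay in a non-coding transcript of Slc40a1 (Slc40a1-204). No transcript of Hmox1, Slc11a1, Trf or Cp held a match, which says only that these letters are not in those transcripts. Among 55 other genes of iron and heme metabolism listed for this report, 1 matched: Alas2, the heme-synthesis enzyme of red cell precursors.

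Total counts ranged from 6617716 to 12806066 per library in the crush experiment and from 5594859 to 10143244 in the iKO experiment, so that 3 counts corresponded to at most 0.453 and 0.536 CPM, the usual count scaled to library size. Dicer1 was at 81.3, 82.1 and 81.9 CPM in the Dicer iKO and at 88.0, 87.4 and 90.5 CPM in its controls (adjusted p = 0.357), and Dgcr8 was at 39.4, 54.0 and 41.8 CPM in the Dgcr8 iKO and 38.4, 35.4 and 41.8 CPM in its controls (adjusted p = 0.233). Counts over whole genes do not resolve a floxed exon, so this does not check the genotype. By PCR, the study reported less Dicer mRNA in the Dicer iKO and less Dgcr8 mRNA in the Dgcr8 iKO than in controls. It also reported less of the microRNA let-7f in both. Levels of cell type markers differed between groups. The summed level of 10 macrophage markers was 773 to 1765 CPM in crushed and 158 to 186 CPM in uncrushed SNs. Contralateral SNs were at 114 to 216 CPM. The sum was 3935 to 7152 CPM in the Dicer iKO and 2619 to 6351 CPM in the Dgcr8 iKO. Crushed replicate 1 had the lowest macrophage sum of its group. Among the Dicer controls, replicate 1 stood toward the mutants in its macrophage and fibroblast sums. The macrophage sum was 1162 CPM against 689 and 354 CPM in replicates 2 and 3. The fibroblast sum was 17577 CPM against 13326 and 6118 CPM. Its red blood cell sum of 3697 CPM stood apart, with at most 610.3 CPM in any other library, the mutants included. The red blood cell sum was 8.67 to 16.7 CPM in crushed, 17.4 to 38.9 CPM in contralateral and 20.3 to 46.7 CPM in uncrushed SNs. In the Dgcr8 iKO it was 13.6 to 37.5 CPM, against 49.4 to 361 CPM in its controls, while the Dicer groups overlapped. The summed level of 10 SC markers was 2099 to 3153 CPM in crushed and at least 40893 CPM in uncrushed SNs, and 14858 to 28822 CPM in the Dgcr8 iKO against at least 43423 CPM in its controls. In crushed against uncrushed SNs, 1 of these SC markers rose and 7 fell at least 2-fold, beside 15.3% and 21.1% of all genes. In whole-nerve RNA, fewer cells of a type and less RNA per cell cannot be told apart.

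**Figure D1:**
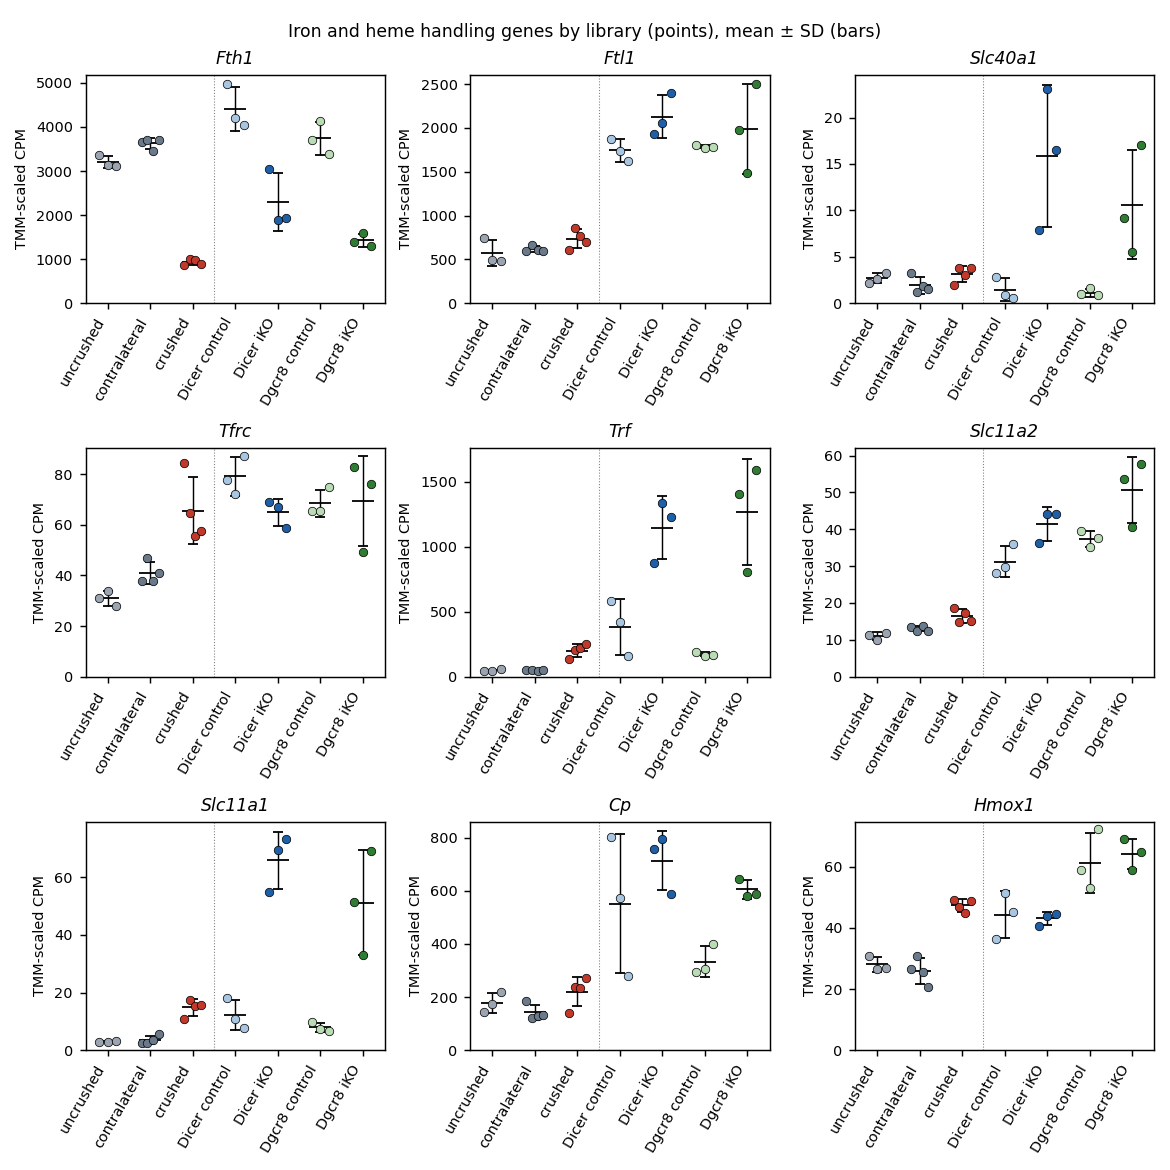
Level of each of the 9 genes in all 23 libraries, as TMM-scaled CPM on axes that start at 0 (points: libraries, horizontal bars: group means, whiskers: SD; the dotted line separates the experiments, whose levels are not comparable). Fth1 is lower in crushed SNs and in both iKO groups than in their controls, while Trf and Slc11a1 are higher.

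Ranked per transcript length, the ferritin chains were the most abundant of these mRNAs. In uncrushed SNs, the values scaled to transcript length and library (FPKM) ranged from 3675 to 4065 for Fth1 and from 566 to 935 for Ftl1, followed by Cp at 48.6 to 81.0 FPKM. Trf (19.1 to 29.3 FPKM) and Hmox1 (18.0 to 24.6 FPKM) overlapped. Tfrc followed at 6.92 to 9.52 FPKM and Slc11a2 at 2.92 to 3.78 FPKM, and the lowest were Slc11a1 (1.2 to 2.12 FPKM) and Slc40a1 (0.79 to 1.27 FPKM), which overlapped. In crushed SNs the gap between the ferritin chains was narrow, with 1226 to 1392 FPKM for Fth1 and 800 to 1083 FPKM for Ftl1. Trf, at 90.7 to 158 FPKM, overlapped Cp there, at 73.4 to 143 FPKM.

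The 9 genes are counted here beside the share of all genes that passed the same test. Against uncrushed SNs, 6 rose (Hmox1, Slc11a1, Slc11a2, Tfrc, Trf and Ftl1) and 1, Fth1, fell at an adjusted p of at most 0.05 (edgeR quasi-likelihood test), beside 33.8% and 33.4% of the 17433 genes tested. At least 2-fold changes were seen for 3 higher members (Slc11a1, Trf and Tfrc) and 1 lower member (Fth1), where 15.3% and 21.1% of all genes passed. Against contralateral SNs, 7 rose, now including Cp, and Fth1 fell, beside 33.5% and 32.9% of 16667 genes, and 2 were at least 2-fold higher and 1 lower beside 14.6% and 13.6%. The crushed libraries enter both comparisons. Between contralateral and uncrushed SNs no member passed, and 0% of 17722 genes did, although 3165 genes had an unadjusted p below 0.05. In the Dicer iKO, 3 members rose (Slc40a1, Slc11a1 and Trf), all at least 2-fold, and Fth1 fell by less than 2-fold. Of 13045 genes, 12.3% were called higher and 8.88% lower, and 7.37% and 1.64% with at least a 2-fold change. In the Dgcr8 iKO, 5 rose (the same 3, Cp and Slc11a2) and Fth1 fell, beside 23.9% and 20.6% of 13252 genes. The same 3 genes and Fth1 changed at least 2-fold, where 13.4% and 6.99% of genes did. The median log2 fold change of the 9 genes was 0.68 after crush against uncrushed SNs, 0.37 in the Dicer iKO and 0.43 in the Dgcr8 iKO, where the median over all genes tested was -0.03, -0.01 and -0.01.

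**Figure D2:**
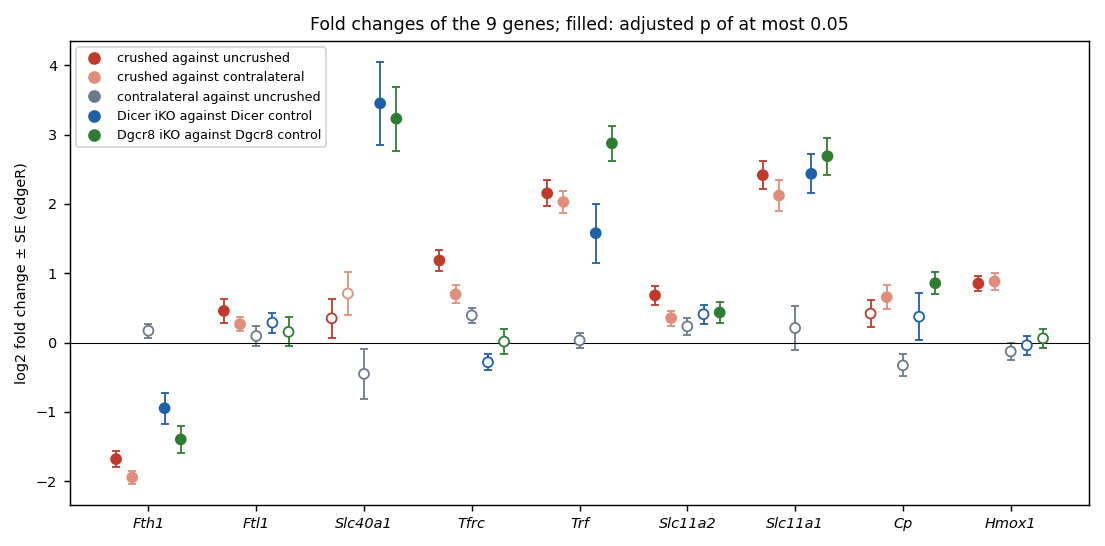
log2 fold change ± SE of each gene in the 5 comparisons (edgeR; filled points: adjusted p of at most 0.05, open points: not passing). Fth1 is the gene below 0 in the crush and both iKO comparisons, and Slc40a1 is at 3.45 and 3.23 in the iKO comparisons but at 0.35 and 0.71 after crush.

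Ferritin heavy chain mRNA, the chain that oxidizes iron for storage, fell after crush and in both iKO groups. Fth1 stood at 862, 1009, 971 and 889 CPM in the crushed SNs, at 3661, 3701, 3445 and 3713 CPM in the contralateral SNs and at 3368, 3144 and 3125 CPM in the uncrushed SNs. Every crushed library was thus far below every uninjured one. The mean was 0.290 of the uncrushed mean, with a log2 fold change of -1.68 ± 0.11 (SE, adjusted p = 8.88e-08), and against contralateral SNs the change was -1.94 ± 0.09 (adjusted p = 1.36e-10). The Dgcr8 iKO libraries read 1398, 1586 and 1288 CPM against 3703, 4129 and 3396 CPM in controls, a log2 fold change of -1.40 ± 0.19 (adjusted p = 0.000167). The Dicer iKO libraries read 3049, 1883 and 1937 CPM against 4984, 4213 and 4053 CPM, a change of -0.95 ± 0.23 (adjusted p = 0.0246). All mutant libraries were below all controls in both iKO comparisons, with Dicer iKO replicate 1 the nearest to them. The Dicer call was lost without control replicate 2 (adjusted p = 0.0801), iKO replicate 2 (0.110) or iKO replicate 3 (0.107), and stayed without control replicate 1 (0.0431).

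The light chain, which helps to lay down the iron core, rose slightly after crush when summed over its transcripts. Ftl1 was at 612, 862, 769 and 700.4 CPM in crushed, 592, 669.5, 609 and 599.9 CPM in contralateral and 746, 489.5 and 487 CPM in uncrushed SNs, and the groups overlapped. Its log2 fold change was 0.46 ± 0.17 against uncrushed SNs (adjusted p = 0.0311) and 0.27 ± 0.10 against contralateral SNs (adjusted p = 0.0292), small rises that passed the threshold but did not hold when single libraries were left out (adjusted p up to 0.109 without uncrushed replicate 3 and 0.174 without crushed replicate 2). Nor did they hold with at least 10 counts in every sample (0.0928 and 0.0602), the first with protein-coding genes only (0.0569) or the second with all groups in 1 fit (0.119). Ftl1-201, which holds the 5′ IRE, took 86.0% to 94.0% of Ftl1 counts in crushed SNs. Its share was 75.6% to 83.9% in contralateral and 75.6% to 82.8% in uncrushed SNs. Most other counts there went to a transcript of 604 bases without a match. Such shares are the submitters' estimate, carry no test, and are not separated in the gene totals. In the iKO nerves Ftl1 was at 1927, 2051 and 2402 CPM (Dicer) and 1976, 1487 and 2505 CPM (Dgcr8), against 1621 to 1879 CPM and 1769.7 to 1801 CPM in the controls, and did not pass the test in either (adjusted p = 0.194 and 0.578).

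The ratio of heavy to light chain mRNA therefore dropped. On a log2 scale of length-scaled abundances (TPM), it was 0.62, 0.33, 0.38 and 0.42 in crushed SNs, 2.65, 2.41, 2.46 and 2.58 in contralateral SNs and 2.12, 2.66 and 2.70 in uncrushed SNs. In linear terms, Fth1 was at 5.62 times the level of Ftl1 in the uncrushed and at 1.35 times in the crushed nerve. The log2 ratio was 1.61, 1.48 and 1.52 in Dicer controls and 0.86, 0.08 and -0.11 in the Dicer iKO, and 1.24, 1.42 and 1.13 in Dgcr8 controls and -0.30, 0.29 and -0.76 in the Dgcr8 iKO. No mutant or crushed library reached the lowest of its controls. In an exact unpaired permutation test (2-sided), p was 0.0286 for crushed against contralateral SNs and 0.0571 for crushed against uncrushed SNs. It was 0.1 in each iKO comparison. Each is the smallest value an unpaired test of these group sizes allows. Between the contralateral and uncrushed SNs p was 0.914. Adjusted over the 5 comparisons, the 4 lower values became 0.125. The levels of the ferritin pseudogenes listed in the files were at most 24.0 counts in any library, so that reads shared with them were few as counted.

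**Figure D3:**
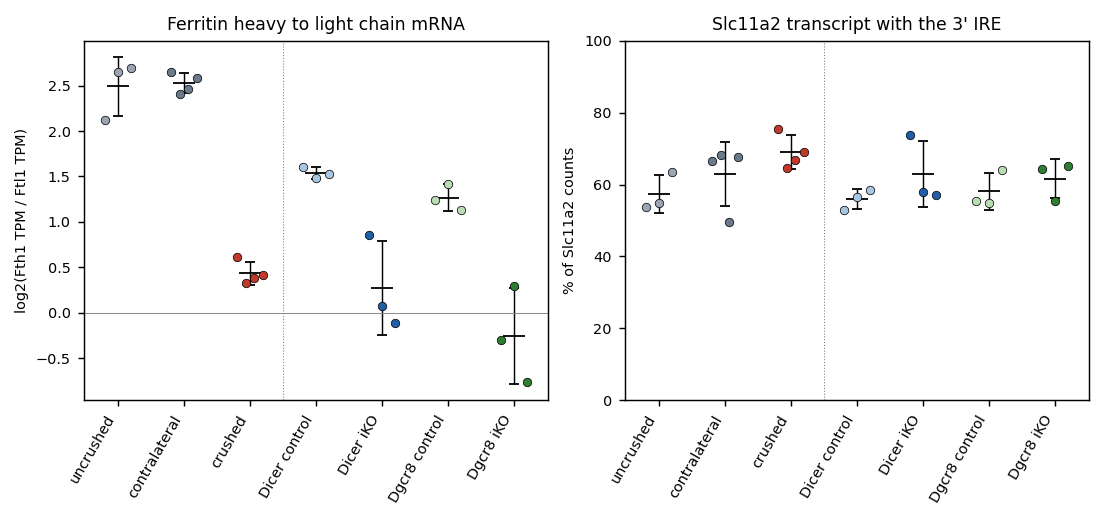
Left: log2 ratio of Fth1 to Ftl1 (TPM) in each library, with group means and SD, between 2.12 and 2.70 in uninjured and between 0.33 and 0.62 in crushed SNs. Right: percent of Slc11a2 counts assigned to the transcript with the 3′ IRE, on an axis from 0 to 100, where the groups overlap widely except crushed and uncrushed SNs.

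Ferroportin, the exporter known from macrophages, gut and liver, rose strongly in both iKO groups. Slc40a1 was at 7.85, 23.1 and 16.5 CPM in the Dicer iKO against 2.87, 0.925 and 0.541 CPM in its controls, and at 9.20, 5.53 and 17.0 CPM in the Dgcr8 iKO against 0.944, 1.63 and 0.83 CPM. The groups did not overlap, although the mutants of each group differed widely among themselves. The log2 fold changes were 3.45 ± 0.60 (adjusted p = 0.00887) and 3.23 ± 0.46 (adjusted p = 0.000234), estimated from 4 to 20 counts per control library. Without Dicer control replicate 1 the former was 4.38 (adjusted p = 0.00402). In the crush experiment the same gene was at 1.92, 3.74, 3.02 and 3.77 CPM in crushed, 3.21, 1.18, 1.81 and 1.54 CPM in contralateral and 2.16, 2.63 and 3.25 CPM in uncrushed SNs. These ranges overlapped, and neither comparison passed (0.35 ± 0.28, adjusted p = 0.289, and 0.71 ± 0.31, adjusted p = 0.0556). Against contralateral SNs the call depended on 1 library, passing without contralateral replicate 1 (adjusted p = 0.00655) or crushed replicate 1 (0.0211).

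The macrophage marker sum moved with Slc40a1 in the iKO nerves. Per 1000 CPM of macrophage markers, Slc40a1 was at 2.02 to 4.54 CPM in Dgcr8 controls and 1.99 to 2.68 CPM in the Dgcr8 iKO, and at 1.34 to 2.47 CPM in Dicer controls and 2.0 to 3.85 CPM in the Dicer iKO. In the crush experiment the same quotient was 11.7 to 17.5 CPM in uncrushed, 8.45 to 14.8 CPM in contralateral and 2.12 to 2.72 CPM in crushed SNs. All 10 macrophage markers were at least 2-fold higher in both crush comparisons, beside 15.3% (uncrushed) and 14.6% (contralateral) of all genes. In the Dicer iKO 7 of the 10 were at least 2-fold higher and 3 did not pass, beside 7.37% of all genes. In the Dgcr8 iKO 8 were at least 2-fold higher and 2 did not pass, beside 13.4%. The part of macrophages in the Slc40a1 levels was not tested.

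The transferrin receptor rose after crush and did not pass the test in either iKO group. Tfrc was at 84.3, 64.6, 55.7 and 57.7 CPM in crushed, 37.8, 47.0, 37.7 and 41.0 CPM in contralateral and 31.1, 33.9 and 27.9 CPM in uncrushed SNs, with no overlap among the 3 groups. The log2 fold change was 1.18 ± 0.15 against uncrushed SNs (adjusted p = 2.67e-05) and 0.70 ± 0.13 against contralateral SNs (adjusted p = 0.000295). The contralateral level was higher than the uncrushed one by 0.39 ± 0.10, which did not pass over all genes (adjusted p = 0.135). In the iKO experiment Tfrc read 68.9, 67.1 and 58.8 CPM in the Dicer iKO against 77.7, 72.3 and 87.3 CPM (-0.28 ± 0.11, adjusted p = 0.114), and 82.7, 49.2 and 76.2 CPM in the Dgcr8 iKO against 65.4, 65.3 and 74.7 CPM (0.01 ± 0.18, adjusted p = 0.955). Dicer iKO libraries lay just below their controls, and Dgcr8 iKO libraries on both sides of theirs.

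Transferrin itself, made mainly by liver but also by glia, rose in all 4 comparisons of an altered nerve with its controls. Trf was at 136, 204, 218 and 248 CPM in crushed SNs, against 55.5, 49.1, 42.9 and 52.6 CPM in contralateral and 45.1, 45.9 and 56.2 CPM in uncrushed SNs. The crushed levels were 4.11 times the uncrushed mean (log2 2.15 ± 0.19, adjusted p = 8.28e-07) and 4.03 times the contralateral mean (2.03 ± 0.16, adjusted p = 3.38e-08). The largest step was in the Dgcr8 iKO, with 1403, 809 and 1593 CPM against 189.7, 162 and 167 CPM (2.87 ± 0.25, adjusted p = 9.69e-06). The Dicer iKO reached similar levels, 875, 1336 and 1229 CPM, but its controls were spread from 581 and 417 CPM in replicates 1 and 2 to 157 CPM in replicate 3. The log2 fold change there was 1.58 ± 0.43 (adjusted p = 0.0360). It was 1.998 without control replicate 1 (adjusted p = 0.0142), and it did not pass without control replicate 2 (0.106) or without iKO replicate 2 or 3 (0.120 each). The order of the Dicer controls in Trf was that of their macrophage and fibroblast sums, and crushed replicate 1 was lowest in Trf as in macrophage markers. Within the Dgcr8 iKO the order in Trf was also that of the macrophage (4629, 2619 and 6351 CPM) and fibroblast sums (20157, 18737 and 22305 CPM). Within the Dicer iKO it was that of neither sum. The fibroblast sum was lower in crushed (3444 to 4059 CPM) than in uncrushed SNs (5683 to 6733 CPM). Per 1000 CPM of macrophage markers, Trf was at 116 to 179 CPM in crushed and 244 to 303 CPM in uncrushed SNs. The contralateral values were 256 to 429 CPM. The quotient was 172 to 222 CPM in the Dicer iKO and 442 to 606 CPM in its controls. For the Dgcr8 iKO it was 251 to 309 CPM, and 407 to 546 CPM in its controls. The part of macrophages and fibroblasts in the Trf levels was not tested.

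The paralogous transporters of divalent metals differed in size of change. Slc11a1 (Nramp1), which moves metal ions out of the phagosome in macrophages, was at 10.8, 17.6, 15.4 and 15.7 CPM in crushed SNs, 2.55, 2.35, 3.51 and 5.64 CPM in contralateral SNs and 2.79, 3.00 and 3.25 CPM in uncrushed SNs. Its log2 fold change was 2.41 ± 0.20 (adjusted p = 5.52e-07) and 2.12 ± 0.22 (adjusted p = 1.03e-06). The Dicer iKO was at 54.7, 69.3 and 73.2 CPM against 18.0, 11.0 and 7.70 CPM (2.43 ± 0.28, adjusted p = 0.00273), and in the Dgcr8 iKO at 51.3, 33.0 and 69.2 CPM against 9.68, 7.21 and 6.84 CPM (2.69 ± 0.26, adjusted p = 2.18e-05). The crushed libraries lay above all uninjured ones and the mutants above their controls, while contralateral and uncrushed SNs overlapped. Per 1000 CPM of macrophage markers, Slc11a1 was at 9.95 to 14.0 CPM in crushed, 11.8 to 31.0 CPM in contralateral and 15.1 to 19.1 CPM in uncrushed SNs, so that the crushed range overlapped the contralateral one. It was at 10.2 to 13.9 CPM in the Dicer iKO and 15.5 to 21.7 CPM in its controls, and at 10.9 to 12.6 CPM in the Dgcr8 iKO and 16.6 to 27.8 CPM in its controls. The part of macrophages in the Slc11a1 levels was not tested.

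Slc11a2 (DMT1), which carries iron across the apical membrane of the gut and out of endosomes, changed little. It was at 18.8, 14.7, 17.3 and 15.1 CPM in crushed, 13.6, 12.5, 13.7 and 12.4 CPM in contralateral and 11.2, 10.02 and 11.96 CPM in uncrushed SNs, 3 groups that did not overlap. It rose by 0.68 ± 0.13 (adjusted p = 0.000711) and 0.35 ± 0.11 (adjusted p = 0.0105) on the log2 scale, the latter not without crushed replicate 1 (0.0577). In the Dgcr8 iKO it was at 53.6, 40.7 and 57.7 CPM against 39.5, 35.1 and 37.5 CPM (0.43 ± 0.15, adjusted p = 0.0333), a call that was lost without any one of 5 of the 6 libraries (adjusted p up to 0.110). The Dicer iKO was at 36.2, 44.2 and 44.0 CPM against 28.0, 29.7 and 35.9 CPM (0.41 ± 0.14, adjusted p = 0.0743). The transcript with the 3′ IRE shown above took 75.5%, 64.5%, 66.9% and 69.1% of Slc11a2 counts in crushed SNs, 66.4%, 68.1%, 49.5% and 67.7% in contralateral SNs and 53.6%, 54.9% and 63.5% in uncrushed SNs. The crushed and uncrushed values did not overlap, with a difference of 11.6 percentage points (exact permutation test, p = 0.0571, the smallest possible, 0.286 adjusted over 5 comparisons). In the other 4 comparisons the difference was 3.56 to 6.95 percentage points, with adjusted p = 0.457 for each. Since the transcripts share most of their sequence, these shares rest on the submitters' estimate of which transcript a read came from.

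For ceruloplasmin, the total changed less than its transcripts. Cp was at 142, 237, 234 and 271 CPM in crushed, 185, 123, 127 and 134 CPM in contralateral and 144, 174 and 219 CPM in uncrushed SNs. The log2 fold change was 0.42 ± 0.20 against uncrushed SNs (adjusted p = 0.0758) and 0.66 ± 0.17 against contralateral SNs (adjusted p = 0.00393). The first passed without crushed replicate 1 (adjusted p = 0.00595) or uncrushed replicate 3 (0.0376). In the Dgcr8 iKO, Cp was at 646, 582 and 587 CPM against 295, 307 and 399 CPM (0.86 ± 0.16, adjusted p = 0.00139). The Dicer iKO was at 758, 796 and 588 CPM, and its controls at 803, 573 and 281 CPM ran in the order of their macrophage and fibroblast sums (0.37 ± 0.34, adjusted p = 0.462).

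The full-length coding transcripts of Cp end in either of 2 last coding exons. The proximal one (chr3:19992509-19992522, plus strand, GRCm38) closes Cp-202 and Cp-203, and the distal one (chr3:20005467-20005555) closes Cp-201, Cp-204 and Cp-205. Alternative 3′ splicing of this gene is known to give a secreted protein, the plasma form, and a form held at the cell surface by a glycosylphosphatidylinositol anchor, encoded by the distal exon. Transcripts with the distal exon took 63.0%, 60.7% and 56.1% of Cp counts in uncrushed SNs, 56.8%, 61.4%, 56.0% and 63.0% in contralateral SNs and 17.3%, 14.7%, 17.9% and 19.1% in crushed SNs. Those with the proximal exon took 22.6% to 28.3% in uncrushed and 59.6% to 63.4% in crushed SNs. As CPM, the distal transcripts were at 90.6, 106 and 123 in uncrushed and at 24.5, 34.8, 42.0 and 51.6 in crushed SNs, 0.360 of the mean, while the proximal ones were at 32.5, 44.2 and 62.0 and at 84.7, 150.1, 146 and 165, 2.95 times the mean. Neither pair of groups overlapped. In the Dgcr8 iKO the distal share was 24.6% to 27.6% against 46.0% to 50.9% in controls, but the distal level hardly moved (154 to 161 CPM against 141 to 203 CPM) and the proximal level rose 2.82-fold. In the Dicer iKO the distal share was 31.6% to 37.1% against 49.2% to 53.1%. In each of these comparisons every altered nerve had a lower distal share than every control, the Dicer control replicate 1 included (50.2%). These shares were looked at after the values were seen and carry no test, and the splitting of reads between the transcripts is the submitters' estimate.

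**Figure D4:**
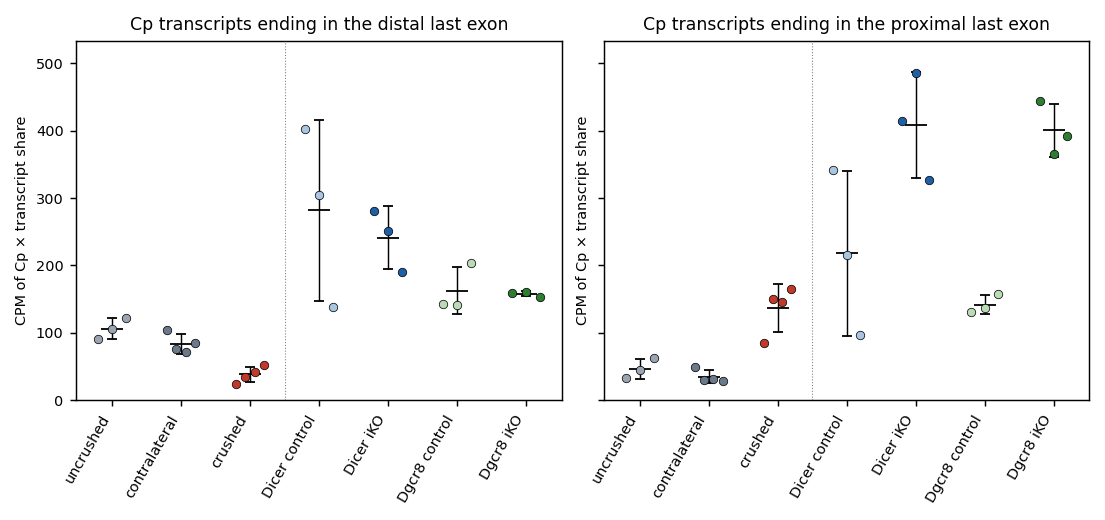
Level of Cp transcripts that end in the distal (left) and proximal (right) last coding exon, as the CPM of Cp times the share of its counts, per library with group mean and SD. After crush the distal transcripts are at 24.5 to 51.6 CPM and the proximal ones at 84.7 to 165 CPM, the reverse of the order in uncrushed SNs.

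Hmox1, which opens the heme ring and releases its iron, rose after crush and did not pass the test in either iKO group. It was at 49.1, 46.7, 44.7 and 48.7 CPM in crushed, 26.4, 30.8, 25.7 and 20.6 CPM in contralateral and 30.9, 26.5 and 26.8 CPM in uncrushed SNs. The crushed values lay close together and above all others, with a log2 fold change of 0.85 ± 0.10 against uncrushed (adjusted p = 1.66e-05) and 0.88 ± 0.12 against contralateral SNs (adjusted p = 1.01e-05). The Dicer iKO was at 40.7, 44.0 and 44.6 CPM against 36.2, 51.4 and 45.3 CPM (-0.04 ± 0.14, adjusted p = 0.863), and in the Dgcr8 iKO at 68.9, 58.9 and 64.6 CPM against 58.8, 52.9 and 72.1 CPM (0.06 ± 0.14, adjusted p = 0.746). Both mutant groups lay inside the range of their controls. Of 8 other targets of the oxidant-responsive factor Nrf2, which also drives Hmox1, 6 rose and 2 fell after crush against uncrushed SNs, beside 33.8% and 33.4% of all genes. Their sum was 532 to 627 CPM in crushed and 145 to 178 CPM in uncrushed SNs. It was 251 to 282 CPM in the Dicer iKO against 307 to 314 CPM, with 0 higher and 3 lower beside 12.3% and 8.88% of all genes, and 306 to 391.6 CPM in the Dgcr8 iKO against 279.6 to 335 CPM, with 2 higher and 3 lower beside 23.9% and 20.6%.

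Whether the 2 iKO effects differed was tested directly. The difference between the Dgcr8 and the Dicer effect passed for none of the 9 members, beside 0.0148% of 13552 genes (2 genes, with 1861 at an unadjusted p below 0.05). The difference was widest for Trf, at 1.30 ± 0.52 on the log2 scale (adjusted p = 0.309), and passed without Dicer control replicate 3 (1.67, adjusted p = 0.0251). Without that library 320 of 13791 genes were called higher and 81 lower. For Fth1 it was -0.45 ± 0.28 (adjusted p = 0.505), and for Slc40a1 -0.22 ± 0.90 (adjusted p = 0.936).

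Around the members, 55 further genes of iron and heme metabolism were listed, of which 47 were tested after crush against uncrushed SNs and 45 to 47 in the others. Against uncrushed SNs 21 rose and 14 fell, with 12 not passing, and 10 and 7 changed at least 2-fold. Of all genes tested there, 33.8% rose and 33.4% fell (15.3% and 21.1% at least 2-fold), so the share that fell was near that of all genes. Against contralateral SNs 22 of 46 rose and 18 fell, beside 33.5% and 32.9% of all genes. In the Dicer iKO 11 of 46 rose and 3 fell, beside 12.3% and 8.88%, and in the Dgcr8 iKO 17 of 45 rose and 7 fell, beside 23.9% and 20.6%. The hepcidin gene Hamp and its regulators Hjv, Tfr2, Tmprss6 and Erfe were not tested in any comparison for low counts, and neither were Ftmt and Hpx.

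**Figure D5:**
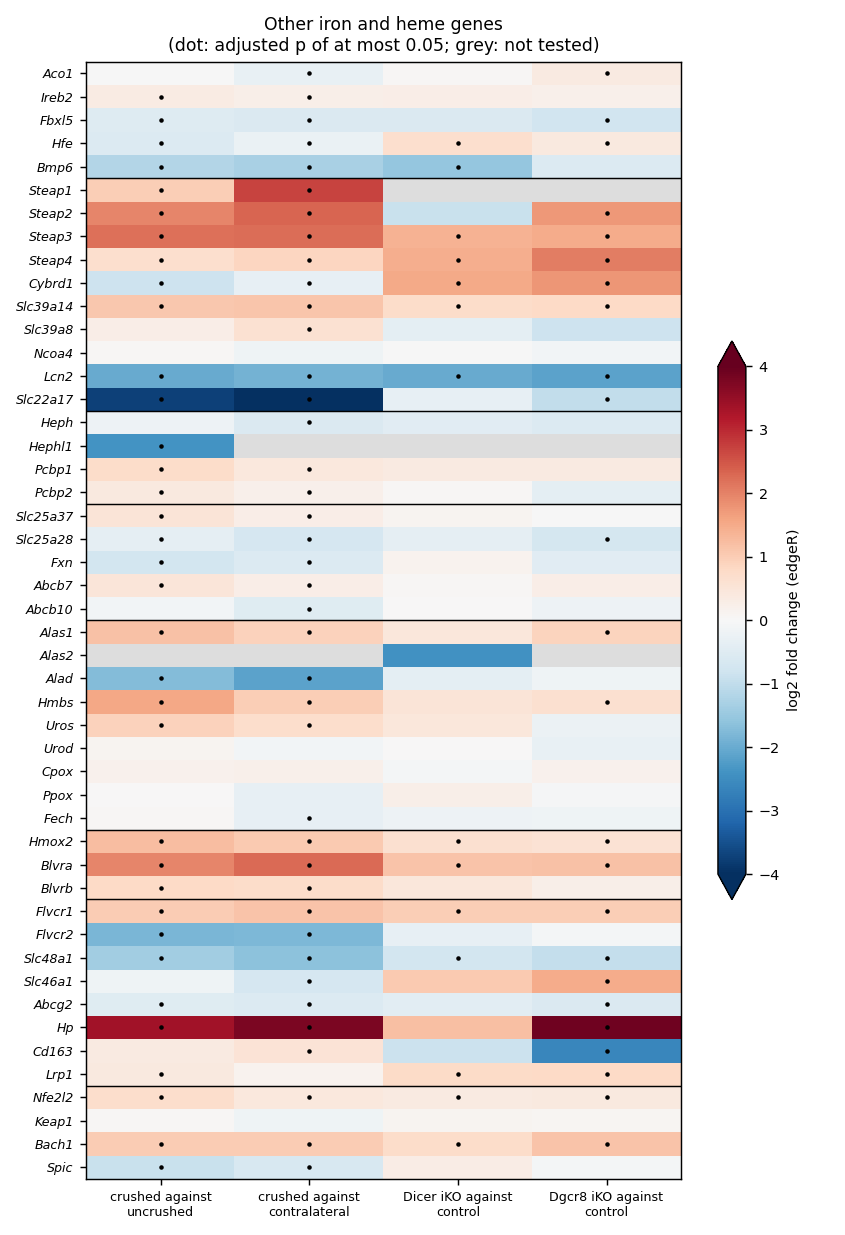
log2 fold change (color, clipped at 4 in each direction) of 48 other iron and heme genes that were tested at least once, grouped by role, in 4 comparisons (dots: adjusted p of at most 0.05, grey: not tested). The rows of Steap3, Hmox2, Blvra, Blvrb and Bach1 are above 0 in all 4 comparisons, and those of Lcn2 and Slc48a1 below 0.

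Among 10 genes of iron reduction, uptake and ferritin turnover, 5 rose and 3 fell after crush against uncrushed SNs, and 5 of the 9 tested rose and 2 fell in the Dgcr8 iKO. The shares that fell were near those of all genes, 33.4% and 20.6%, and 33.8% and 23.9% of all genes rose. Among the genes that rose were ferrireductases, which convert ferric to ferrous iron for transport. Steap3, the endosomal reductase that works with Tfrc, was at 68.6 to 85.0 CPM in crushed and 17.8 to 18.3 CPM in uncrushed SNs (2.19 ± 0.11, adjusted p = 6.01e-09), and rose also in the Dicer iKO (1.39 ± 0.36, adjusted p = 0.0308). Steap2 rose by 1.95 ± 0.18 after crush and by 1.73 ± 0.24 in the Dgcr8 iKO. Steap4 rose by 1.46 ± 0.31 and 2.06 ± 0.20 in the Dicer and Dgcr8 iKO. Cybrd1 (duodenal cytochrome b) rose in both iKO groups, by 1.51 ± 0.24 and 1.77 ± 0.19, and was at 13.0 to 16.7 CPM in crushed against 22.8 to 36.2 CPM in uncrushed SNs, a fall. Steap1, at 1.92 to 2.07 CPM after crush and 0.189 to 0.502 CPM in contralateral SNs, was close to the detection limit.

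The siderophore-binding lipocalin Lcn2 fell in all 4 comparisons, by 2.02 ± 0.38 after crush against uncrushed SNs and by 2.15 ± 0.28 in the Dgcr8 iKO on the log2 scale, from low levels (2.22 to 4.23 CPM in uncrushed SNs). Its receptor Slc22a17 showed the largest fall of the list after crush, from 39.5 to 49.4 CPM in uncrushed to 2.20 to 3.93 CPM in crushed SNs (-3.73 ± 0.18, adjusted p = 3.93e-09). Slc22a17 fell by 0.97 ± 0.15 in the Dgcr8 iKO. The ferroxidase Hephl1 was at 0.0942 to 0.366 CPM in crushed and 1.25 to 1.71 CPM in uncrushed SNs, few counts in any library.

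Genes of heme handling moved on several sides. All 3 listed enzymes of heme breakdown and bile pigment formation besides Hmox1 (Hmox2, Blvra and Blvrb) rose in both crush comparisons. Of all genes, 33.8% rose against uncrushed and 33.5% against contralateral SNs. Blvra, which turns biliverdin into bilirubin, rose by 1.94 ± 0.19 after crush and by 1.14 ± 0.25 in the Dicer iKO. In each iKO comparison 2 of these 3 genes rose, 1 of them at least 2-fold. Their log2 fold changes ran from 0.24 to 1.17 in the Dgcr8 iKO. Of all genes, 12.3% rose in the Dicer iKO and 23.9% in the Dgcr8 iKO (7.37% and 13.4% at least 2-fold). In heme synthesis 3 of 8 tested genes rose and 1 fell against uncrushed SNs, where 33.8% of all genes rose and 33.4% fell. The fall was that of Alad, an early enzyme of the chain, which fell by 1.73 ± 0.15 there and by 2.13 ± 0.12 against contralateral SNs. None of the 9 tested heme synthesis genes passed in the Dicer iKO, where 12.3% of all genes were higher and 8.88% lower. Of the carriers, the heme transporter Slc48a1 was at 22.6 to 25.4 CPM in crushed and 61.2 to 72.9 CPM in uncrushed SNs, and fell in the Dicer iKO by 0.72 ± 0.09 and in the Dgcr8 iKO by 0.96 ± 0.11. Flvcr2 fell by 1.82 ± 0.27 after crush. Haptoglobin (Hp), which binds free hemoglobin, rose by 3.35 ± 0.36 after crush and by 3.89 ± 0.32 in the Dgcr8 iKO, to 3.09 to 5.09 CPM and 10.8 to 15.3 CPM. The sum of 8 neutrophil markers was 11.1 to 23.6 CPM in crushed and 2.25 to 2.91 CPM in uncrushed SNs, and 5.06 to 7.82 CPM in the Dgcr8 iKO, where Ly6g, Camp and Ngp were at 0, against 0.104 to 0.952 CPM in its controls. The sum of 5 adipocyte markers was 14.98 to 41.5 CPM in the Dgcr8 iKO and 0.544 to 2.71 CPM in its controls, and 2.07 to 9.86 CPM in crushed and 1.38 to 3.76 CPM in uncrushed SNs. The part of these cells in the Hp levels was not tested. Cd163, the macrophage receptor for hemoglobin bound to haptoglobin, fell by 2.61 ± 0.29 in the Dgcr8 iKO. Its level was 58.0 to 78.3 CPM in controls and 5.07 to 15.5 CPM in the mutants. In that comparison 8 of the 10 macrophage markers rose, beside 23.9% of all genes. Bmp6, an inducer of hepcidin, was at 4.26 to 6.38 CPM in the Dicer iKO and 11.4 to 22.3 CPM in its controls (-1.56 ± 0.29, adjusted p = 0.0113).

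Genes with the pattern nearest to each member were sought by the root mean square difference between group means of log2(CPM + 1), each centred within its experiment, over 7 groups and among 10091 genes with a mean of at least 5 CPM in each experiment. For Slc11a1 these were Apobec1 (0.12) and Adcy7 (0.12), for Slc40a1 Csf3r (0.15) and Glipr1 (0.20), and for Trf Cyba (0.09) and Cebpa (0.15). For Fth1 they were Erc2 (0.08) and Camk2n1 (0.09), for Tfrc Klf6 (0.04) and Phip (0.07), and for Cp Zfp385a (0.04) and Jam2 (0.06). The nearest to Ftl1 was Fam222b (0.02), to Slc11a2 Atp6v0c (0.03) and to Hmox1 the mitochondrial mt-Atp8 (0.07).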

How the data were processed

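The authors deposited, per library and transcript, estimated counts, TPM and FPKM values made with RSEM on GRCm38 after Trimmomatic (per the labels) and alignment with STAR (per the methods), together with each transcript's GC fraction and width in the deposited tables. Estimated counts were summed per gene and rounded. Genes passing filterByExpr (minimum count 10) were TMM-normalized and tested with the quasi-likelihood test of edgeR 4.0.16 (R 4.3.3) in 2-group fits, with Benjamini-Hochberg adjustment over all genes tested. CPM values were computed with TMM-scaled library sizes. Calls required an adjusted p of at most 0.05, with or without at least a 2-fold change. The interaction of the iKO effects was fitted over 12 libraries. The share of Slc11a2 counts and the Fth1 to Ftl1 ratio were tested by exact permutation. FPKM was used to rank genes within a group only. Alternatives were RLE scaling, other filters, protein-coding genes only, DESeq2 1.42.0, all groups in 1 fit, a replicate block and leaving out each library. The edgeR steps were tested on simulated data. Members and lists were chosen with earlier results of these data known. The other iron genes named are, per comparison, up to 4 in each direction with the largest change among those that passed. Values of such genes in a comparison where the rule did not take them, and the genes Hmox2, Blvrb and Bach1, were chosen after their values were seen. Between 27 pairs of replicates, counts differed by more than sampling noise (chi-square per degree of freedom 4.36 to 42.4), so none was counted as 1 sample. Per the methods, the crush libraries of each group came from separate mice. The GC fraction, the width and the posterior estimates were not used.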

Additional observations from a re-analysis of the deposited data

Results flagged for a closer look

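The share of Slc11a2 counts from the transcript with the 3′ IRE was 49.5% in contralateral replicate 3 and 66.4% to 68.1% in the other contralateral libraries, a gap of 0.91 of the range of the group. Of 22 groups of 4 examined in this way, 1 stood out so, and chance gives about 1 in 20.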

How the results depend on the processing

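Directions and calls of the 9 genes mostly stayed under other settings: of 366 fold changes refitted with another scaling, filter, tool, sample set or replicate block, 354 kept both, 7 lost (5 of them Ftl1 after crush) and 3 gained the call, and 2 uncalled ones turned (with the block, Slc11a1 between contralateral and uncrushed SNs at -0.13 and Tfrc in the Dgcr8 iKO at -0.013 on the log2 scale). Replicate numbers were not treated as pairs: correlations of same-numbered libraries ran from -0.23 to 0.27, and not every library correlated best with its own number (0 of 3 for Dicer, 1 of 3 for Dgcr8). With the replicate block, the Dicer comparison gave 1 member higher and 1 at least 2-fold higher (3 each without it), Slc40a1 having an adjusted p of 0.0570 and Trf of 0.0822, and for the other iron and heme genes 4 higher (11 without), 2 at least 2-fold higher (4) and 1 at least 2-fold lower (2). With at least 10 counts in every sample, other genes at least 2-fold higher numbered 6 against uncrushed and 5 against contralateral SNs, and 1 was at least 2-fold lower in the Dicer iKO. With no filter, 11 other genes were lower against contralateral SNs, and 1 member (Tfrc) was higher and 1 other gene lower between contralateral and uncrushed SNs. DESeq2 called 6 and a fit of all groups 5 other genes lower in the Dicer iKO, and DESeq2 called 1 other gene higher and 1 lower for the difference of the iKO effects. The Slc11a2 share in the Dgcr8 iKO was -1.01 percentage points with TPM. The causes were not tested.

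Leaving out 1 library at a time, higher members numbered 5 to 7 and 6 to 7 in the crush comparisons (uncrushed, contralateral), 2 to 4 in the Dicer iKO, 4 to 5 in the Dgcr8 iKO and 0 to 1 for the difference of the iKO effects. In the Dicer iKO, lower members numbered 0 to 1, members at least 2-fold higher 2 to 3 and lower 0 to 1. Members at least 2-fold higher against contralateral SNs numbered 2 to 3. Other genes in the Dicer iKO numbered 2 to 13 higher, 2 to 5 lower, 1 to 5 at least 2-fold higher and 1 to 4 at least 2-fold lower. In the Dgcr8 iKO 2 to 4 were at least 2-fold lower, for the difference 0 to 2 were higher, and against contralateral SNs 6 to 11 were at least 2-fold higher. The log2 ratio of Fth1 to Ftl1 between contralateral and uncrushed SNs ran from -0.15 to 0.14. Of the fold changes, 25 uncalled values turned. Their ranges for the difference of the iKO effects were -0.33 to 0.052 for Ftl1, -0.016 to 0.24 for Hmox1, -0.12 to 0.51 for Slc11a1, -0.084 to 0.18 for Slc11a2 and -1.16 to 0.17 for Slc40a1. In the Dgcr8 iKO they were -0.043 to 0.33 for Ftl1, -0.040 to 0.19 for Hmox1 and -0.13 to 0.22 for Tfrc, in the Dicer iKO -0.17 to 0.080 for Hmox1, and between the uninjured groups -0.0050 to 0.37 for Ftl1, -0.11 to 0.37 for Slc11a1 and -0.028 to 0.14 for Trf. Depth limits Slc40a1 most, at 4 to 20 counts in control libraries of the iKO experiment.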
